A study of Mus musculus with 6 samples.

Results

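The genes described here are 10 known targets of the transcription factor p53, taken as a list of symbols: Cdkn1a, Mdm2, Ccng1, Trp53inp1, Phlda3, Zmat3, Btg2, Plk2, Aen and Perp. The list was chosen with earlier results of these data known. All 10 were found among the 25663 gene IDs of the deposited count table. RNA was sequenced from mouse neutrophils sorted from C57BL/6 bone marrow as CD45+CD11b+Ly6G+ cells. One group of 3 samples (LPS+resveratrol) was kept for 6 hours with lipopolysaccharide (LPS), a bacterial cell wall component that activates neutrophils, together with resveratrol, a plant polyphenol, given in the labels as 25 μmol. The other group of 3 samples (LPS) had LPS alone for the same 6 hours. All 6 samples thus carry LPS, and no sample without LPS was analysed here. The series' design text mentions duplicates, but the labels list 3 samples in each group, and all 6 were used. The sources used here give no age, sex or number of mice per sample. Because nothing states that the replicates are separate animals, each p-value reflects only sample-to-sample spread, which could be technical.

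As background, the p53 protein (gene Trp53 in the mouse) is kept scarce in unstressed cells by MDM2, a ubiquitin ligase that marks it for destruction. After DNA damage and other stresses p53 accumulates, binds paired copies of a short DNA motif, and switches on genes that halt the cell cycle, repair DNA, change metabolism or kill the cell. Some of these targets, MDM2 among them, act back on p53. Most of this control acts on the protein rather than on Trp53 mRNA. Mature neutrophils do not divide and are short-lived.

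Promoters were examined first, because the members are grouped by a shared DNA-binding factor. The RefSeq promoter table (build GRCm38.p6) held 9 start sites for 7 members, Cdkn1a and Aen with a pair each. Trp53inp1, Zmat3 and Perp had no entry. The 250 bases before each start were searched for the p53 decamer, the consensus of 10 bases of which a p53 binding site holds 2 copies, which reads the same on both strands. An exact decamer was present before 4 of the 9 starts (Cdkn1a, Mdm2, Ccng1 and Aen), against 7.13% of 32807 mouse promoters. The Aen windows (chr7:78895677-78895926 and chr7:78895808-78896057) overlap, so they are not separate sequence. The Aen decamer lies before the downstream Aen start but after the upstream one. A decamer with at most 1 mismatch was present before 5 of the 9, Btg2 being the addition, against 44.7% of all promoters. A pair of decamers at most 13 bases apart with at most 3 mismatches in all stood before 3 of the 9, against 13% of all. The letters TATAAA and TGACNNNGC (the core of the antioxidant response element), searched on both strands, were before 0 of the 9 starts, against 12.4% and 10.2% of all promoters. A match describes letters in this window and is not a measured binding site. Sequence outside these windows was not searched. Whether matches go with the changes below was not tested.

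The upstream windows of Cdkn1a and Ccng1, which rose in both comparisons below, and of Mdm2, which passed in neither, are shown 5′ to 3′. Capitals mark decamers with at most 1 mismatch and the central C and G kept. The upstream Cdkn1a window (chr17:29090729-29090978, plus strand) holds 3 of them, 2 of which lie side by side. The first, 73 bases before the start, and the second are exact and 12 bases apart. The downstream window (chr17:29093519-29093768, plus strand), whose start lies 2790 bases further on, holds 0 of them. The Ccng1 window (chr11:40755287-40755536, minus strand) holds a side-by-side pair with 1 mismatch in all, the first copy beginning 195 bases before the start. The Mdm2 window (chr10:117710759-117711008, minus strand) holds 1 exact copy and 1 with a mismatch.
Cdkn1a upstream: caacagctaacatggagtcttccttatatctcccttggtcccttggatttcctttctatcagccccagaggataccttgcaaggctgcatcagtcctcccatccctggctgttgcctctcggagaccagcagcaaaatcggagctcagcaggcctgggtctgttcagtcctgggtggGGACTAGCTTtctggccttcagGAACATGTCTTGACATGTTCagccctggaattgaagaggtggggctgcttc
Cdkn1a downstream: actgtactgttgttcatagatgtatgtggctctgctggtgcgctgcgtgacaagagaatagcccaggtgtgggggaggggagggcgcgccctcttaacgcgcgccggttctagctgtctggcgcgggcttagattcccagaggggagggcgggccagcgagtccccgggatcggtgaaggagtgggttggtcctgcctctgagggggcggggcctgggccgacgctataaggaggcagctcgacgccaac
Ccng1: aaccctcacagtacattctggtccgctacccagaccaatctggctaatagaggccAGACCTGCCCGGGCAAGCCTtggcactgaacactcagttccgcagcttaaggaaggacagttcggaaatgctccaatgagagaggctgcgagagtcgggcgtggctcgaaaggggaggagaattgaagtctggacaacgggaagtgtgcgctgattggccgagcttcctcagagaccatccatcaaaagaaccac
Mdm2: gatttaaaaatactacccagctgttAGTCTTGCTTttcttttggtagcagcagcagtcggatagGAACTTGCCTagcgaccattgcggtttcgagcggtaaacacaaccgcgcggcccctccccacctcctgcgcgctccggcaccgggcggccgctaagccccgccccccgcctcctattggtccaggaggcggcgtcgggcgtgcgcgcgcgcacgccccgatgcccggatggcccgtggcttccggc
The 30 bases around the exact decamer of Aen (chr7:78895927-78895956, plus strand) are given as the counterpart in a member that did not rise.
Aen: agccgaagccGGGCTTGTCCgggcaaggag

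Total counts per sample lay between 18141352 and 19928153, and the 10 members together took between 0.126% and 0.176% of them. Levels are given as CPM, counts relative to library totals scaled by edgeR's TMM factors. Neutrophil transcripts were abundant. The 13 neutrophil markers summed to 54810, 80510 and 81770 CPM in LPS+resveratrol replicates 1 to 3, and to between 67310 and 72430 CPM with LPS. LPS+resveratrol replicate 1 stood apart. Its correlation of log2(CPM + 1) with the other libraries across tested genes was at most 0.972, while each pair of the others had at least 0.989. Tested genes with transcripts over 4 kb lay above the mean of LPS+resveratrol replicates 2 and 3 in that library (median log2 difference 0.36), and genes with a GC content over 55% lay below it (−0.40). Most results are therefore given over 6 libraries and without LPS+resveratrol replicate 1, called the 5-library comparison. Some are given for a single comparison only. LPS replicate 2 also differed from its group, to a lesser degree, and was kept in both comparisons. Its counts gave a chi-square per degree of freedom of 15.2 and 14.7 against LPS replicates 1 and 3, and those 2 gave 3.78. For LPS+resveratrol replicate 1 against replicates 2 and 3 it was 117 and 119.9. Because that library was left out for its deviation in these same data, the 5-library fits see less spread. Their p-values can therefore be too small.

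With resveratrol, the cell cycle inhibitor Cdkn1a, the cyclin Ccng1 and the autophagy and stress gene Trp53inp1 rose, by 1.62 to 1.84 times in mean CPM. Of the 10 members, 3 rose, 0 fell and 7 did not pass over 6 libraries (quasi-likelihood test of edgeR, p adjusted by Benjamini-Hochberg over 13468 tested genes, threshold 0.05). Of all tested genes, 0.668% were called higher and 1.17% lower in that comparison, 1.83% in either direction. In the 5-library comparison 7 members rose, 0 fell and 3 did not pass, where 11.8% of 13791 tested genes were called higher and 12.9% lower. The 4 further members were Phlda3, Zmat3, Btg2 and Plk2, and 6 of the 9 members besides Phlda3 were called. Because the members were chosen with earlier results of these data known, these counts are no independent test of the list. The median log2 fold change of the members was 0.53 over 6 libraries and 0.51 over 5, beside 0.00 and −0.01 for all tested genes. Without Phlda3, whose LPS libraries were all below the filter's 0.537 CPM and which was therefore tested only through its LPS+resveratrol libraries, these medians were 0.36 and 0.37. Its own direction followed from how it was kept for testing. All 3 calls over 6 libraries were lost to edgeR when any 1 library other than LPS+resveratrol replicate 1 was left out (0 members called, 4 to 6 higher at an unadjusted p under 0.05). No tested gene at all passed in those 5 edgeR fits (0 higher and 0 lower), so the loss was not limited to the members. DESeq2 called 3 members in each of them, beside 2.34% and 1.83% of tested genes called higher without LPS+resveratrol replicates 2 and 3, and 0.712%, 0.697% and 0.699% without LPS replicates 1, 2 and 3. DESeq2 over 5 libraries called 5 members higher (Cdkn1a, Ccng1, Trp53inp1, Btg2 and Plk2) and 0 lower, beside 8.97% and 9.54% of tested genes.

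**Figure D1:**
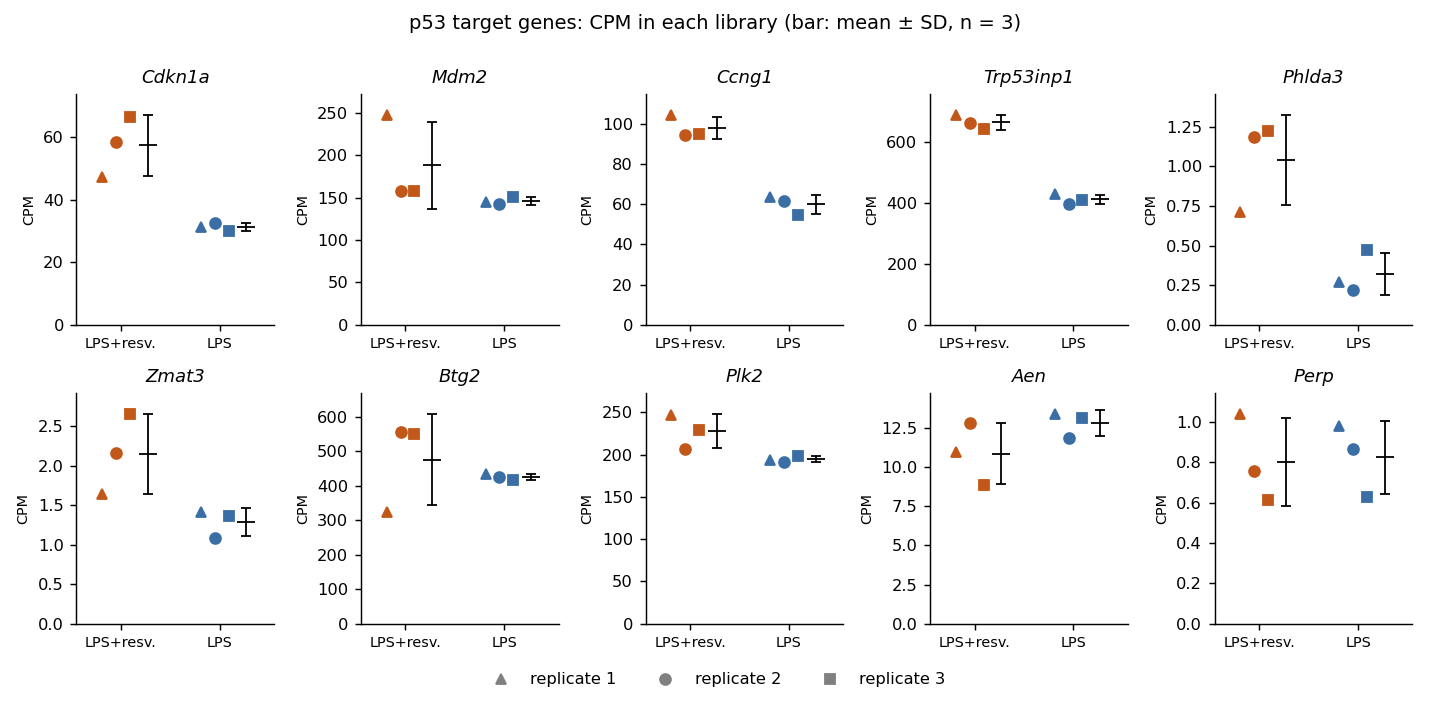
Levels of the 10 p53 target genes in each library, in CPM on a linear axis from 0 (LPS+resveratrol left, LPS right); symbols mark the replicate number and bars the mean ± SD of 3 libraries. All LPS+resveratrol libraries lie above all LPS libraries for 7 genes, and LPS+resveratrol replicate 1 is the highest of its group for Mdm2 and the lowest for Btg2.

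Cdkn1a (ENSMUSG00000023067) encodes p21, which binds cyclin-dependent kinases and halts the cell cycle, and is the best known p53 target. It stood at 47.2, 58.5 and 66.6 CPM in LPS+resveratrol replicates 1 to 3, against 31.3, 32.4 and 29.9 CPM in the LPS replicates. Every LPS+resveratrol library was above every LPS library, with LPS+resveratrol replicate 1 the lowest of its group. The log2 fold change was 0.88 ± 0.144 (SE, n = 3 each; edgeR adjusted p = 0.0366) and 1.00 ± 0.0761 in the 5-library comparison (edgeR adjusted p = 2.1e-12). It had the largest of the 3 called rises over 6 libraries. Its exons share 7.68% of their bases with AC167363.2 on the opposite strand.

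Ccng1 (ENSMUSG00000020326) encodes cyclin G1, which recruits a phosphatase to MDM2 and so feeds back on p53. It stood at 104.8, 94.9 and 95.0 CPM with LPS+resveratrol, against 63.5, 61.9 and 54.8 CPM with LPS. The groups were separate and the 3 LPS+resveratrol libraries lay close together, replicate 1 included. Its log2 fold change was 0.71 ± 0.109 (SE; edgeR adjusted p = 0.0312) over 6 libraries and 0.65 ± 0.0648 over 5 (edgeR adjusted p = 8.08e-10).

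Trp53inp1 (ENSMUSG00000028211) encodes a stress protein of the nucleus and of autophagosomes that promotes p53 phosphorylation and autophagy. Its levels were 688.6, 662.8 and 640.7 CPM with LPS+resveratrol, against 427.3, 397.0 and 408.3 CPM with LPS. No library of one group came near the other group. Over 6 libraries the log2 fold change was 0.69 ± 0.0926 (SE; edgeR adjusted p = 0.0252), and over 5 it was 0.66 ± 0.053 (edgeR adjusted p = 6.71e-12). Its transcripts are long and poor in GC (median 5404 bases and 38.8% GC, against 1972 bases and 50.1% over tested genes), the kind that ran high in LPS+resveratrol replicate 1. With offsets for transcript length and GC content the log2 fold change over 6 libraries was 0.50 and the call was lost (edgeR adjusted p = 0.0771). In the 5-library comparison it was 0.64 and passed. Those offsets left the member count over 6 libraries at 3, with Phlda3 in its place (1.95, edgeR adjusted p = 0.0338), while 1.78% of tested genes were called higher.

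Mdm2 (ENSMUSG00000020184), the ubiquitin ligase that removes p53, stood at 247.7, 157.9 and 158.2 CPM in LPS+resveratrol replicates 1 to 3, against 145.0, 142.1 and 150.9 CPM with LPS. Replicate 1 was far above the other 5 libraries, and replicates 2 and 3 lay just above the LPS libraries. The log2 fold change was 0.36 ± 0.186 (SE; edgeR adjusted p = 0.322) over 6 libraries and 0.11 ± 0.0497 over 5 (edgeR adjusted p = 0.121), and passed in neither. Of the feedback genes of p53 in the list, Ccng1 and Trp53inp1 thus rose while Mdm2 had the values just given. The difference between their changes was not tested.

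Phlda3 (ENSMUSG00000041801) encodes a small protein with a pleckstrin homology domain that competes with AKT for membrane lipids. It was rare, with 13, 22 and 24 reads with LPS+resveratrol, against 5, 4 and 9 reads with LPS. These correspond to 0.711, 1.19 and 1.22 CPM with LPS+resveratrol, against 0.272, 0.216 and 0.471 CPM with LPS, and the groups did not overlap. The log2 fold change was 1.68 ± 0.416 (SE; edgeR adjusted p = 0.0958) over 6 libraries and 1.88 ± 0.482 over 5 (edgeR adjusted p = 0.00324). DESeq2 gave no adjusted p for it in either comparison. In the 5-library comparison the call was lost when LPS+resveratrol replicate 2 or 3 was also left out (edgeR adjusted p = 0.078 and 0.104).

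Zmat3 (ENSMUSG00000027663), a zinc finger RNA-binding protein that affects splicing and mRNA stability, was also rare, with 30, 40 and 52 reads with LPS+resveratrol, against 26, 20 and 26 reads with LPS. The groups did not overlap, and LPS+resveratrol replicate 1 lay just above the highest LPS libraries. In CPM these were 1.64, 2.16 and 2.65 with LPS+resveratrol, against 1.42, 1.08 and 1.36 with LPS. Over 6 libraries its log2 fold change was 0.74 ± 0.267 (SE; edgeR adjusted p = 0.198), and over 5 it was 0.89 ± 0.292 (edgeR adjusted p = 0.0214). That call was lost with DESeq2 (adjusted p = 0.0946), and with LPS+resveratrol replicate 3 or LPS replicate 2 also left out (edgeR adjusted p = 0.236 and 0.0607).

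Btg2 (ENSMUSG00000020423) encodes an antiproliferative protein that binds the mRNA deadenylase complex. It stood at 323.3, 556.6 and 549.2 CPM in LPS+resveratrol replicates 1 to 3, against 433.3, 426.1 and 418.0 CPM with LPS. Replicates 2 and 3 lay above all LPS libraries and replicate 1 below all of them, so the groups overlapped. The log2 fold change was 0.16 ± 0.204 (SE; edgeR adjusted p = 0.678) over 6 libraries and 0.37 ± 0.0519 over 5 (edgeR adjusted p = 9.28e-07). In the 5-library comparison the call held with each single further library left out.

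Plk2 (ENSMUSG00000021701) encodes a polo-like kinase of the stress response and of centriole duplication. Its levels were 247.2, 206.6 and 229.6 CPM with LPS+resveratrol, against 194.0, 191.1 and 198.4 CPM with LPS. The groups did not overlap, and LPS+resveratrol replicate 2 lay close to the LPS libraries. The log2 fold change was 0.23 ± 0.103 (SE; edgeR adjusted p = 0.272) over 6 libraries and 0.16 ± 0.0508 over 5 (edgeR adjusted p = 0.0196). The 5-library call was lost with LPS+resveratrol replicate 3 or LPS replicate 2 left out (edgeR adjusted p = 0.513 and 0.0574), and with the replicate number as a block, where 6 members were called beside 9.57% of tested genes.

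Aen and Perp, which act in cell death, showed no rise. Aen (ENSMUSG00000030609) encodes a nuclease of apoptotic cells and stood at 10.9, 12.8 and 8.87 CPM with LPS+resveratrol, against 13.4, 11.9 and 13.1 CPM with LPS. The groups overlapped, the log2 fold change was −0.24 ± 0.163 (SE) and the gene did not pass (adjusted p = 0.447 by edgeR over 6 libraries and 0.178 over 5). With LPS+resveratrol replicates 1 and 2 both left out, the remaining library gave −0.54 and passed as lower (edgeR adjusted p = 0.0148). Perp (ENSMUSG00000019851) encodes a membrane protein of desmosomes that also promotes cell death. It had 19, 14 and 12 reads with LPS+resveratrol, against 18, 16 and 12 reads with LPS, and its fitted log2 change was −0.04 ± 0.338 (SE; edgeR adjusted p = 0.957). At such counts the SE is wide enough that sizeable changes in either direction were not detectable at this depth.

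**Figure D2:**
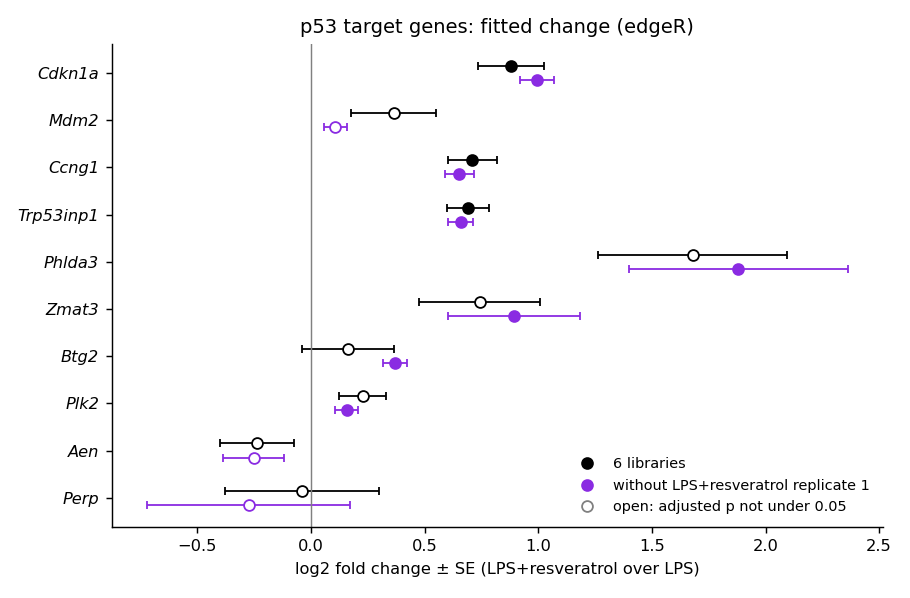
Fitted log2 fold change ± SE of each gene (LPS+resveratrol over LPS; edgeR) over 6 libraries (black) and without LPS+resveratrol replicate 1 (purple); filled points have an adjusted p under 0.05. Cdkn1a, Ccng1 and Trp53inp1 are filled in both comparisons, Phlda3, Zmat3, Btg2 and Plk2 over 5 libraries only, and Mdm2, Aen and Perp in neither.

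Overlap between the groups was also counted, which needs no fitted spread. In 7 members every LPS+resveratrol library was above every LPS library, as in 17.3% of tested genes, and in 0 members every one was below, as in 15.9%. Over 5 libraries 8 members were separate with LPS+resveratrol above, as in 25% of tested genes. Btg2 was the eighth. Without Phlda3, which was kept for testing through its LPS+resveratrol libraries alone, these counts were 6 and 7 of 9. LPS+resveratrol replicate 1 lay above the mean log2 level of replicates 2 and 3 for Mdm2, Perp, Plk2, Ccng1, Trp53inp1 and Aen (by 0.65, 0.61, 0.18, 0.14, 0.08 and 0.04), and below it for Btg2, Phlda3, Zmat3 and Cdkn1a (−0.77, −0.76, −0.54 and −0.40). Phlda3 has the most GC-rich transcripts of the list (62.6%) and lay low in that library, as GC-rich genes did in general. Zmat3 has the longest (7672 bases) and lay low too, unlike long genes in general. The part of length and GC content in these single deviations was not tested.

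**Figure D3:**
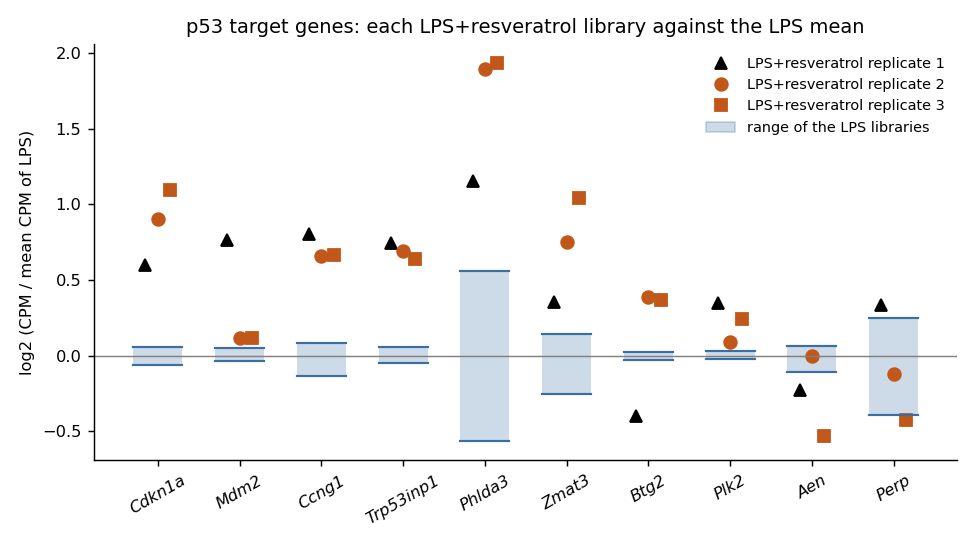
Log2 ratio of each LPS+resveratrol library to the mean CPM of the LPS libraries, per gene; shaded boxes span the 3 LPS libraries. For Cdkn1a, Ccng1 and Trp53inp1 all 3 points lie between 0.60 and 1.09, while Mdm2 is at 0.76 in replicate 1 (black triangle) and at 0.11 and 0.12 in replicates 2 and 3.

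Divided by transcript length, the members covered a wide range of levels. In CPM per kb of median transcript, Btg2 averaged 173.7 ± 48.4 with LPS+resveratrol and 155.2 ± 2.8 with LPS (SD, n = 3 each), and Trp53inp1 122.9 ± 4.44 with LPS+resveratrol and 76.0 ± 2.83 with LPS. Plk2 followed with 81.4 ± 7.28 and Mdm2 with 60.2 ± 16.6 CPM per kb with LPS+resveratrol, beside 69.5 ± 1.31 and 46.8 ± 1.44 with LPS. Cdkn1a averaged 37.2 ± 6.3 and Ccng1 28.0 ± 1.62 CPM per kb with LPS+resveratrol, beside 20.2 ± 0.816 and 17.1 ± 1.32 with LPS. Aen averaged 8.27 ± 1.49 CPM per kb with LPS+resveratrol and 9.74 ± 0.625 with LPS, and Phlda3, Perp and Zmat3 were below 1 in every library. The order of Btg2, Trp53inp1, Plk2, Mdm2, Cdkn1a, Ccng1 and Aen by mean was the same in both groups. In LPS+resveratrol replicate 1 Trp53inp1 (127.4) was above Btg2 (117.9), so these neighbours do not differ beyond the spread of that group.

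The p53 gene itself did not rise. Trp53 stood at 23.9, 33.1 and 30.8 CPM with LPS+resveratrol, against 37.5, 39.1 and 42.2 CPM with LPS, and every LPS+resveratrol library was below every LPS library. Its log2 fold change was −0.43 ± 0.144 (SE; edgeR adjusted p = 0.173) over 6 libraries, and it fell by 0.32 on the log2 scale over 5 (edgeR adjusted p = 0.0029). Its relative Trp63 had 1, 0 and 0 reads with LPS+resveratrol, against 0, 1 and 2 reads with LPS, and was not tested. Trp73 was not analysed here. Mdm4, the partner of MDM2 that masks p53, averaged 207.0 ± 29.6 CPM with LPS+resveratrol and 187.3 ± 14.8 CPM with LPS (SD, n = 3 each) and passed in neither comparison (edgeR adjusted p = 0.563 over 6 libraries and 0.912 over 5). Among all tested genes 0.668% were called higher and 1.17% lower over 6 libraries, and 11.8% and 12.9% over 5. Of 29 tested genes in a list of the p53 family and its regulators, 0 rose, 1 fell and 28 did not pass over 6 libraries, and 5 rose and 4 fell over 5. The 1 that fell was Daxx, a chromatin chaperone that binds MDM2, at 85.3, 109.4 and 116.6 CPM with LPS+resveratrol, against 185.7, 194.8 and 173.0 CPM with LPS (log2 fold change −0.83 ± 0.139 SE, edgeR adjusted p = 0.0368).

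Other p53 targets were taken from 5 lists by role, 99 genes of which 91 were tested. Over 6 libraries edgeR called 0 of the 91 higher and 0 lower, with 15 higher and 9 lower at an unadjusted p under 0.05, as were 10.7% and 9.18% of all tested genes. DESeq2 called 7 higher and 5 lower, beside 2.93% and 3.35% of all tested genes. Over 5 libraries edgeR called 18 higher and 15 lower, beside 11.8% and 12.9% of all tested genes. Their median log2 fold change was 0.03 over 6 libraries and 0.07 over 5, near that of all genes. The 10 members had 0.53 and 0.51, or 0.36 and 0.37 without Phlda3, which was tested only through its LPS+resveratrol libraries. Whether the 10 differ from the other targets was not tested, and both were chosen with earlier results of these data known.

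In the apoptosis and autophagy list 7 of 18 tested genes rose and 5 fell over 5 libraries. The shares of all tested genes were 11.8% and 12.9%. Ulk1, a kinase that starts autophagy, and Pidd1, a scaffold that activates caspase 2, had the smallest p over 6 libraries, with log2 fold changes of 0.57 and 0.94 (edgeR adjusted p = 0.0807 and 0.0847), and rose by 0.45 and 0.98 over 5. The other 10 genes of the list that passed over 5 libraries, named after their values were seen, went in both directions. Those that rose were the death receptor gene Tnfrsf10b (1.12), Bcl2l11 or BIM (0.61), Ei24 (0.56), Bbc3 or PUMA (0.54) and the autophagy gene Dram1 (0.17), on the log2 scale. Those that fell were Aifm2 (−0.60), Casp1 (−0.28), Pmaip1 or NOXA (−0.21), Bid (−0.17) and the death receptor gene Fas (−0.17). Bid shares 17.7% of its exon bases with Bcl2l13 on the opposite strand. Over 6 libraries none of these 10 passed (edgeR adjusted p between 0.0852 and 0.952), and the groups of Bbc3, Ei24 and Bid overlapped. LPS+resveratrol replicate 1 was far below its group for Bbc3, which stood at 2.95, 17.6 and 18.5 CPM with LPS+resveratrol, against 9.91, 12.5 and 14.6 CPM with LPS.

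In the cell cycle and growth arrest list 3 of 16 rose and 2 fell over 5 libraries. The shares of all tested genes were 11.8% and 12.9%. Ppm1d, the WIP1 phosphatase that shuts off p53 signalling, stood at 30.6, 23.0 and 23.5 CPM with LPS+resveratrol, against 15.7, 17.3 and 14.8 CPM with LPS. The groups were separate, and the log2 fold change was 0.69 over 6 libraries (edgeR adjusted p = 0.0748) and 0.54 over 5 (edgeR adjusted p = 3.97e-05). Plk3, a stress-response kinase and a relative of Plk2, had −0.50 on the log2 scale over 6 libraries (edgeR adjusted p = 0.0684) and fell by 0.51 on the log2 scale over 5 libraries.

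In the DNA repair and nucleotide list 4 of 11 rose and 0 fell over 5 libraries, with a median log2 fold change of 0.38 over 6 and 0.26 over 5. Among all tested genes 11.8% rose and 12.9% fell over 5 libraries. Pcna, the sliding clamp of DNA polymerases, averaged 77.5 ± 10.9 CPM with LPS+resveratrol and 51.8 ± 1.44 CPM with LPS (SD, n = 3 each; edgeR adjusted p = 0.0774), and rose by 0.68 over 5. The repair nuclease Ercc5 had 0.67 on the log2 scale over 6 libraries (edgeR adjusted p = 0.15) and rose by 0.63 over 5 libraries.

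In the metabolism and redox list 1 of 17 rose and 2 fell over 5 libraries, beside 11.8% and 12.9% of all tested genes. The 2 that fell were the carboxylesterase Ces2g, at no more than 1 CPM in any library, and Gpx1, a glutathione peroxidase, with log2 fold changes of −1.77 and −0.47. Ces2g lay near the filter's 0.537 CPM, so its direction may follow from how it was kept for testing. In the list of signalling and other targets 3 of 29 rose and 6 fell, beside the same 11.8% and 12.9% of all tested genes. Kcnn4, a potassium channel, fell by 0.97 on the log2 scale and the small GTPase gene Rap2b rose by 0.45. Rap2b shares 54.5% of its exon bases with B430305J03Rik on the opposite strand, and reads of such a pair cannot be told apart without strand. Over 6 libraries these 4 genes did not pass (edgeR adjusted p between 0.0727 and 0.146).

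**Figure D4:**
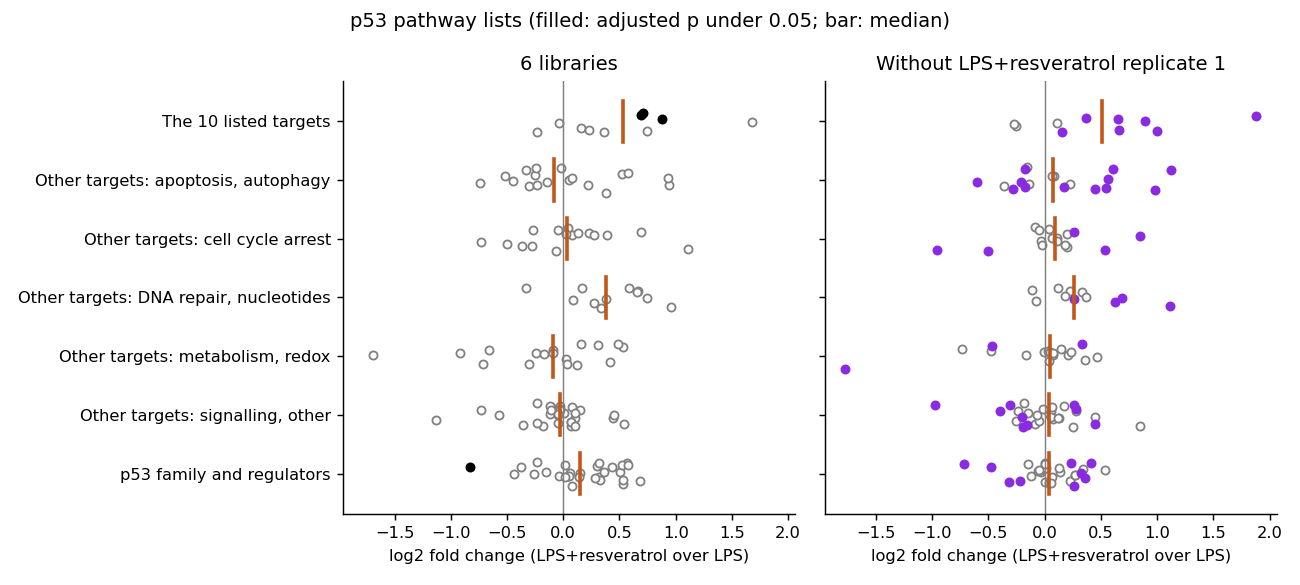
Log2 fold change (LPS+resveratrol over LPS; edgeR) of the tested genes of each p53 pathway list over 6 libraries (left) and without LPS+resveratrol replicate 1 (right); filled points have an adjusted p under 0.05 and orange bars are medians. The 10 targets have a median of 0.53 over 6 libraries and 0.51 over 5 (0.36 and 0.37 without Phlda3). The 5 lists of other targets have medians between −0.09 and 0.38 over 6 libraries and between 0.04 and 0.26 over 5.

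Relatives of the members moved in both directions. Of 18 tested paralogs 1 rose and 2 fell over 6 libraries, and 5 rose and 6 fell over 5. Among all tested genes 0.668% rose and 1.17% fell over 6 libraries, and 11.8% and 12.9% over 5. Cdkn1b, the p27 relative of p21, averaged 118.7 ± 4.49 CPM with LPS+resveratrol and 99.0 ± 2.33 CPM with LPS (SD, n = 3 each), a log2 difference of 0.26, which did not pass (edgeR adjusted p = 0.194). Ccng2, the relative of Ccng1, had 0.28, and Trp53inp2, the autophagy gene related to Trp53inp1, had 0.23, and neither passed (edgeR adjusted p = 0.217 and 0.288). All 3 rose over 5 libraries, by 0.22, 0.34 and 0.30. Btg1, the relative of Btg2, had −0.06 and 0.06 and did not pass in either comparison. The 3 calls over 6 libraries were Tob1, an antiproliferative relative of Btg2, which rose by 0.74, and Isg20, an RNA exonuclease related to Aen, and Plk1, the mitotic kinase related to Plk2, which fell by 1.16 and 1.29 on the log2 scale.

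Genes that act with p21 moved in both directions. Of 21 tested partners 2 rose and 1 fell over 6 libraries, beside 0.668% and 1.17% of all tested genes. Over 5 libraries 7 rose and 5 fell, beside 11.8% and 12.9%. The cyclin E genes, whose kinase p21 inhibits, rose. Ccne1 stood at 6.46, 6.04 and 5.05 CPM with LPS+resveratrol, against 2.83, 2.59 and 2.46 CPM with LPS. Ccne2 stood at 15.8, 14.4 and 13.2 CPM with LPS+resveratrol, against 6.97, 6.42 and 5.92 CPM with LPS, and neither gene's groups overlapped. Their log2 fold changes were 1.15 ± 0.176 and 1.17 ± 0.139 (SE; edgeR adjusted p = 0.0312 and 0.0229). Ccne2 shares 17.4% of its exon bases with Ints8 on the opposite strand. The cyclin D gene Ccnd2 fell by 0.63 on the log2 scale (edgeR adjusted p = 0.0469). Among all tested genes 1.17% fell and 0.668% rose over 6 libraries, and 12.9% and 11.8% over 5. Of 24 cell cycle genes that p53 and p21 are known to lower through the DREAM repressor complex, 7 fell and 0 rose over 6 libraries, and 19 fell and 2 rose over 5. Ccnb1, Ccnb2, Plk1 and Ube2c had the smallest adjusted p, with log2 fold changes of −1.43, −1.33, −1.29 and −1.87. Ube2c shares 22.8% of its exon bases with Tnnc2 on the opposite strand. Whether p53 or p21 had a part in the changes of these cell cycle genes was not tested.

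Markers of immature and other cells moved beside these genes. Among all tested genes 15.9% were lower in every LPS+resveratrol library than in every LPS library and 17.3% higher. Of 7 markers of neutrophil precursors, 5 were lower in this way and 0 higher. The primary granule gene Mpo was among the 5, at 62.2, 58.9 and 60.8 CPM with LPS+resveratrol, against 87.1, 100.7 and 97.0 CPM with LPS. The summed level of the 7 was 962.7, 666.1 and 623.8 CPM with LPS+resveratrol, against 859.9, 894.6 and 845.0 CPM with LPS. These sums overlapped, with LPS+resveratrol replicate 1 above every LPS library. Of the 8 monocyte and macrophage markers 4 were lower and 1 higher in every LPS+resveratrol library, with sums between 2490 and 2731 CPM with LPS+resveratrol and between 2538 and 2584 CPM with LPS. The B cell markers summed to between 87.8 and 132.8 CPM with LPS+resveratrol and between 141.2 and 151.8 CPM with LPS, and the groups did not overlap. The summed levels of 5 other lists were likewise lower in every LPS+resveratrol library than in every LPS library. T cell markers summed to between 8.96 and 11.2 CPM with LPS+resveratrol and between 11.8 and 13.7 CPM with LPS, and NK cell markers to between 2.21 and 2.75 CPM with LPS+resveratrol and between 3.43 and 4.40 CPM with LPS. Eosinophil markers summed to between 29.2 and 60.1 CPM with LPS+resveratrol and between 63.2 and 71.1 CPM with LPS, and basophil and mast cell markers to between 51.0 and 59.1 CPM with LPS+resveratrol and between 60.7 and 65.0 CPM with LPS. Stem and progenitor markers summed to between 49.2 and 56.5 CPM with LPS+resveratrol and between 58.7 and 63.1 CPM with LPS. As single markers, 2 of 5 for B cells and 1 of 6 for T cells were lower in every LPS+resveratrol library. The same held for 2 of 4 NK cell, 2 of 4 eosinophil and 1 of 4 basophil and mast cell markers. It held for 0 of 4 stem and progenitor markers, and 0 markers of these lists were higher in every one. The sums of the erythroid, dendritic cell and epithelial lists overlapped between the groups and were at most 48.9 CPM. Of the 13 neutrophil markers, 6 were higher in every LPS+resveratrol library and 0 lower. No marker was at 0 in all 6 libraries. In such bulk samples fewer cells of a type and less RNA per cell cannot be told apart, and the part of these markers in the results on p53 targets was not tested.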

How the data were processed

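RNA from sorted mouse neutrophils was sequenced on Illumina libraries in 6 samples, 3 per group, and the samples were grouped by the treatment given in the labels. The deposited table holds whole-number read counts per gene, not normalized. Per the submitters' processing notes Bowtie 0.12.2 and the mouse build mm8 were used; the counter, its annotation and its strand setting were not given in the sources used here. Of 25663 IDs, 25595 matched a gene symbol. Total counts per sample were 18141352 to 19928153, so genes with few reads are imprecise. The members and all gene lists were chosen with earlier results of these data known, and named genes are all members, fixed relatives, and per list up to 4 genes past the threshold with the smallest adjusted p, or the 2 with the smallest p where none passed. Outside that rule, 10 apoptosis genes called over 5 libraries were named after their values were seen.

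Counts were tested with edgeR 4.0.16 in R 4.3.3 (TMM scaling, filterByExpr with a minimum count of 10, robust quasi-likelihood test, two-sided) on the whole table, with Benjamini-Hochberg adjustment over all tested genes and a threshold of 0.05. No pair of libraries held identical values. Alternatives were DESeq2 1.42.0, limma 3.58.1 with voom, other scalings and filters, offsets for transcript length and GC content, a replicate block, and leaving out each library. DESeq2 with each library left out was added after seeing the data. The fits were tested on simulated data. Lengths and GC content are medians over protein-coding transcripts. Cdkn1a shares 7.68% of its exon bases with AC167363.2 on the opposite strand; no other member overlaps a gene in exons.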

Additional observations from a re-analysis of the deposited data

How the results depend on the processing

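No called value of a member changed direction under any alternative run. Perp, which did not pass, had −0.04 over 6 libraries and between 0.00 and 0.13 with LPS+resveratrol replicate 2, LPS+resveratrol replicate 3 or LPS replicate 1 left out. Over 6 libraries the count of members called higher was 6 with sample quality weights in limma-voom, 0 with the replicate block (4 at an unadjusted p under 0.05), 5 with DESeq2 without LPS+resveratrol replicate 1, and between 0 and 7 with one library left out in edgeR. Leaving out a library lowers the number of samples, and without LPS+resveratrol replicate 1 the biological coefficient of variation was 7.46%, against 19.8% over 6 libraries. Deviations from group means correlated at 0.07, 0.04 and −0.02 between samples with the same replicate number (1 to 3). LPS+resveratrol replicate 1 weighs heavily on these deviations, so they cannot tell whether the samples were paired. The median log2 fold change over 6 libraries was 0.491 unscaled, 0.369 with at least 50 counts in 3 samples and 0.362 with the length and GC offsets, and 0.463 to 0.588 with one library left out. Over 5 libraries the count was 4 to 7 with one further library left out, where a group of 1 or 2 remains and a lone sample is assumed to vary like the others, and 5 to 7 under the other settings (6 with the replicate block). The median there was 0.494 unscaled, 0.536 without a filter, 0.367 with the stricter filter, 0.539 with the block, and 0.482 to 0.538 with one library left out. The stricter filter drops the rare members; the cause of the other shifts was not tested. Of single-member values under the other settings, 79 of 87 kept their side of the threshold over 6 libraries and 84 of 87 over 5. With one library left out, 41 of 60 did over 6 libraries (15 lost a call and 4 gained one) and 43 of 50 over 5 (6 lost and 1 gained).

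Over all tested genes 90 were called higher and 157 lower over 6 libraries by edgeR, 394 and 451 by DESeq2, 1435 and 1487 with quality weights, 153 and 239 without a filter, 239 and 282 with the offsets, and 0 and 0 with the block. Members with few reads (Phlda3, Zmat3 and Perp) are limited by depth.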
